A study of Mus musculus with 53 samples.

Results

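The long non-coding RNA (lncRNA) content of 25 single haematopoietic stem cells (HSCs) from adult mouse bone marrow is described here, as 1 table of 6910 rows by cell. The cells were wildtype and were sorted from marrow of adult C57 mice. They are 25 of the 48 cells with RNA libraries in a series of 53 samples on lncRNAs in blood stem cell development. All adult columns with a cell name of their own were used. The 2 columns that carry the same cell number, 16, were left out, which leaves 25 of the 26 adult cells that the labels list. The other RNA libraries of the series are of T1 pre-HSCs, type 1 precursors of HSCs taken at E11 from the embryonic aorta-gonad-mesonephros region. Of these, the cells titled wildtype, whose genotype label reads mH19 flDMR/+, are set beside the adult cells at the end. No label names an animal, a sort or a day for the adult cells. They count as 1 sample, so ranges and standard deviations (SDs) over cells are given and nothing was tested.

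HSCs renew themselves and give rise to all blood lineages, and most of them are quiescent in the adult marrow. LncRNAs are transcripts without a long open reading frame, many of them spliced and polyadenylated like mRNA, and often present at few copies per cell. Some act in the nucleus as scaffolds (Malat1, Neat1), some silence a chromosome or a gene cluster (Xist, Airn, Kcnq1ot1), and others are the spliced hosts of small nucleolar RNAs (snoRNAs) or microRNAs (Gas5, Dleu2).

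The strongest lncRNA signal in these cells came from a small set of rows. Only 24 of the 6910 rows reached a value of 10 or more in at least 13 of the 25 cells, and they included Gas5, Malat1, Neat1, Tug1, Meg3 and AI662270. The table lists each row with a value per cell that is treated here as FPKM, fragments scaled to transcript length and to the total of the cell, so levels of different rows can be compared per length. A row was called detected in a cell at a value of 1 or more. By that rule 4157 rows (60.2%) were detected in at least 1 cell, 878 in 5 or more, 299 in 13 or more and 7 in every cell. At a value of 10 or more, a rule added after the values were seen, these counts were 1117 rows (16.2%) in at least 1 cell, 125 in 5 or more, 24 in 13 or more and 1 in every cell. The depth behind these values is unknown, so a row listed at 0 is not shown to be absent.

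Features of the deposited table bear on every count that follows and are given first. They begin with the values from 1 to 10. Outside the rows set aside below, 609 values lay between 0.5 and 1 and 3015 between 1 and 2, a ratio of 4.95 to 1. At the other end 3302 values lay between 5 and 10 and 537 between 10 and 20, a ratio of 6.15 to 1. The step at 1 and the step at 10 were present in all 25 cells. In all, 10537 of 14638 values above 0 (72.0%) lay from 1 up to 10, with a median over cells of 72.2% and a range from 43.3% in cell 24 to 83.3% in cell 14.

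Among rows detected in 13 or more cells, the excess from 1 to 10 was greater in long rows than in short ones. Among the 235 rows of 20 kb or more that were detected in 13 or more cells, values from 1 to 2 outnumbered those from 0.5 to 1 by 14.1 to 1, and 88.5% of all values above 0 lay from 1 up to 10. Among the 64 such rows under 20 kb the same ratio was 3.76 and the share 47.5%. Both sets were chosen for values of 1 or more in 13 or more cells, so their ratios at 1 are partly set by that rule. The RPKM table of the 9 wildtype T1 pre-HSCs used here showed a ratio of 1.22 over the 1295 rows that both tables list, with 21.6% of values from 1 up to 10. The adult ratios above are over other sets of rows, and none is given for those 1295. Of the 235 long rows, 78 are listed for the T1 cells. Over these the T1 ratio was 1.55 at 1 and 2.75 at 10, with 20.6% of values from 1 up to 10. The adult ratio at 10 over all 235 was 11.8. A further 783 adult values were written in exponent form, and 782 of them carried the exponent +00. Those 9 T1 cells had 632 values in exponent form, all of them below 0.0001. What produced the steps was not tested. A value from 1 up to 10 is therefore quoted below as the table gives it, and the counts of rows, cells and list members are also given for values of 10 or more. The 10-row shares and the correlations between cells and between rows below use all values.

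**Figure D1:**
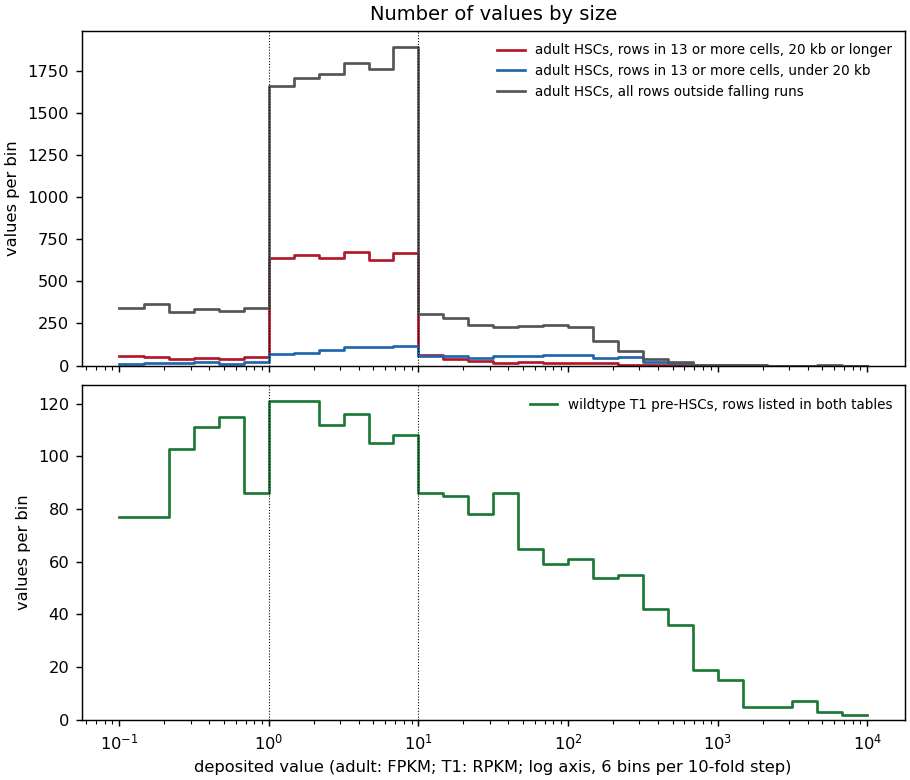
Number of deposited values in bins of equal width on a log axis, 6 bins per 10-fold step. The top panel shows the adult HSCs (FPKM), and the adult counts quoted here are over the 5227 rows not set aside below. The bottom panel shows 9 wildtype T1 pre-HSCs (RPKM) over the 1295 rows that both tables list. The adult and T1 counts are thus over different sets of rows. Dotted lines mark 1 and 10. The adult counts step up at 1 and down at 10, where 3015 values from 1 to 2 stand against 609 from 0.5 to 1, and the T1 counts change by a ratio of 1.22 at the same place.

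The rows themselves showed an order. Of 2473 rows with a single value above 0, 1632 lay in 141 falling runs, stretches of 5 or more such rows in which 1 cell's value did not rise down the alphabetical table. Rising runs of the same length held 5 such rows. Rows with 2 values above 0 added 51 rows in falling runs and 0 in rising runs. Among the 1393 rows with 3 or more values, falling runs held 327 rows and rising runs 348. The runs occurred in all 25 cells, the longest had 29 rows, and the last ended at row 5113, Grip1os2. Along the chromosome Y clones the row CH36-122K11.2 was listed at 2.13 in cell 7, CH36-278L19.4 at 2.07 in cell 7, and the next row with a value, CH36-326H15.1, at 2.07 in cell 8. The 1683 rows in falling runs were set aside as an alternative where stated, chosen after seeing the data, and what produced the order was not tested. Of the 1117 rows at 10 or more in at least 1 cell, 743 lay outside falling runs. Of the 779 rows at 10 or more in 1 cell only, 411 did. Counts at 10 or more in 5 to 12 cells and in 13 or more cells did not change.

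**Figure D2:**
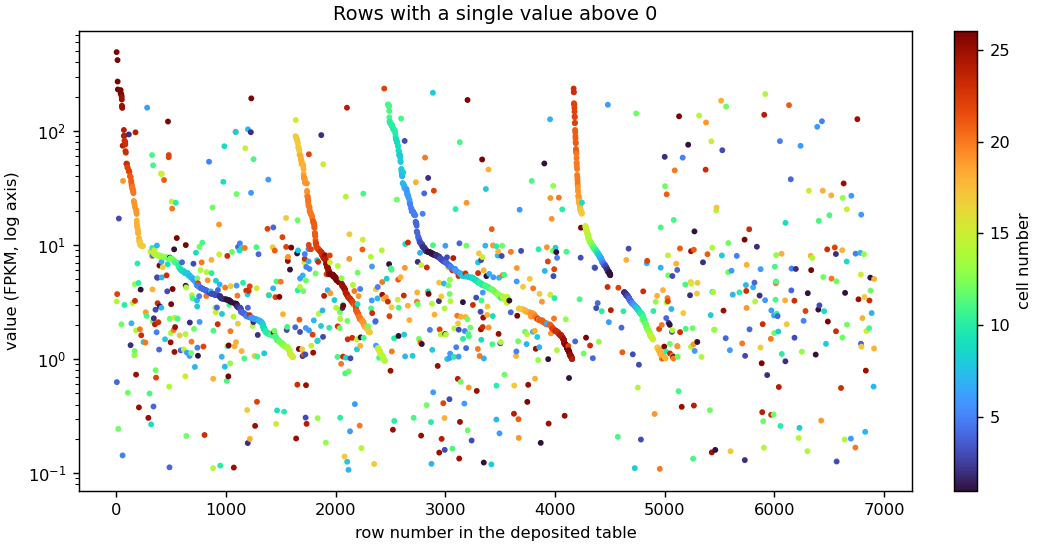
The 2473 rows with a single value above 0, by row number in the deposited alphabetical table and by value (FPKM, log axis), coloured by the cell that holds the value. The 1632 rows in falling runs form descending lines that pass through the cells in the order of their numbers. Most other rows scatter, and some lie on the same lines in stretches of fewer than 5 rows.

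Cells 23 and 24 shared the same 5 or more significant digits in 179 of the 350 rows above 0 in both (51.1%), 87 at the same value and 92 at another decimal place. Among the other 299 pairs of cells, only cells 11 and 20 shared such digits, in 1 row. Meg3 was listed at 110 in cell 23 and at 11027 in cell 24, and Airn at 0.747 and 74.7. The summed level of cell 24 was 37739 against 7186 to 13107 in the other cells. Without both cells no summary of detection, length, chromosome or list below moved beyond the spread between cells or by more than 1.5 times.

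The cell type itself could not be checked in this table. None of 37 protein-coding markers of HSCs, erythroid, myeloid, megakaryocyte, lymphoid, stromal and endothelial cells is a row of it. Of 2777 rows with a RefSeq gene type by name or current symbol, 2634 were lncRNA and 5 antisense RNA there. Another 88 were protein-coding, 23 transcribed pseudogenes and 16 pseudogenes. Among the 88 protein-coding rows are 1810058I24Rik and 2210013O21Rik (now Nbdy).

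Most rows were seen in few cells, and the class seen in 1 cell changed most with the row order. Exactly 1 cell held 2497 of the detected rows, and 836 once rows in falling runs were set aside, which also lowered the number detected in any cell from 4157 to 2489. A further 782 rows were detected in 2 to 4 cells, 579 in 5 to 12 and 292 in 13 to 24. Per cell, detected rows numbered 384 in cell 21 at the lowest, 561 at the median and 761 in cell 20 at the highest (SD 108, n = 25 cells), or 323, 486 and 682 without the falling runs. At 10 or more, the number per cell ran from 39 in cell 25 through a median of 100 to 157 in cell 24. Without the falling runs these were 29, 87 and 149. The 10 highest rows of a cell held 31.1% of its summed level at the median, from 20.6% in cell 11 to 68.3% in cell 24. Gas5 was the highest row in 9 cells, Gm17041 in 4, AI662270 in 2 and H19 in 2. The other 8 cells each had a different highest row, among them Meg3 in cell 24 and Gm26870 at 1745 in cell 25.

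Among lncRNAs known by function, Gas5 had the highest level. Gas5, named for its rise on growth arrest and the host of several snoRNAs, lies at chr1:161034422-161038539 on mm10 and ranged from 0 through a median of 318 to 1030 in cell 6. It was detected in 22 of 25 cells (88.0%, exact 95% interval 68.8 to 97.5, counting error only) and was at 0 in cells 14, 21 and 25. Where detected its median was 383, and cell 7, at 1.87, was the only detecting cell below 10. Its values thus fell into a large high group and 4 cells at or near 0.

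The nuclear lncRNAs were widely detected at lower levels. Malat1, an abundant RNA of nuclear speckles at chr19:5795690-5802672, ranged from 0 through 61.0 to 213 in cell 9 and reached 10 in 21 cells. Neat1, the scaffold of paraspeckles at chr19:5824708-5845478, ranged from 0 through 26.3 to 240 in cell 14 and reached 10 in 16 cells. Tug1, a conserved lncRNA at chr11:3639785-3649673, ranged from 0 through 38.3 to 269 in cell 7, with 101 next, and reached 10 in 17 cells. These ranges overlap, and with 1 sample the order of their medians has no test. Cells 10, 14 and 25 were at 0 in the Malat1 row, and of these only cell 25 also lacked Tug1. The row RP24-458F14.4, which lies inside Malat1, was at 119 in cell 25 and at 0 in cells 10 and 14. Cell 25 is therefore not shown to lack Malat1. Cell 14, without Malat1, had the highest Neat1 value.

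AI662270, on chr11:83223576-83226604 and listed as a lncRNA by RefSeq, ranged from 0 through 125 to 675 in cell 24, was detected in 22 cells and reached 10 in 19. The lncRNAs 2410006H16Rik and 1110038B12Rik, which overlap no protein-coding gene, reached 10 in 17 and 15 cells with medians of 87.3 and 46.0. Both were highest in cell 1, at 348 and 283, with the second-highest value in cell 19.

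Several of the highest rows lie in or across genes that code for proteins, and the sources used here do not say whether reads were counted by strand. Reads of such a row and of the coding gene cannot be told apart. Gm17275, the only row at 10 or more in every cell, ranged from 74.2 through 236 to 564 in cell 21, and its span at chr1:180802568-180809483 lies wholly within H3f3a, a gene of the replication-independent histone. Gm17134 lies within Ptbp1, which codes for a splicing regulator, and Plppr3, with values from 0 through 160 to 442. RP23-243M12.5 (now Gm38316) lies within Pnp, the gene of purine nucleoside phosphorylase, with values from 0 through 107 to 519. Gm17041 lies within Cish, a cytokine-induced suppressor of signalling, and ranged from 0 through 52.9 to 1115 in cell 13, with 15 cells detected and 4 at 0.

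Of the 24 rows at 10 or more in 13 or more cells, 17 (70.8%) overlapped a RefSeq protein-coding gene and 5 lay wholly within it. Overlap was found for 163 of the 299 rows detected in 13 or more cells (54.5%) and for 50.3% of all rows. The other 7 were Malat1, AI662270, 2410006H16Rik, Neat1, RP24-458F14.4, 1110038B12Rik and Yam1. RP24-458F14.4 spans 453 bases inside Malat1, so its reads cannot be told apart from those of Malat1. The identifier of Yam1 now has the symbol Gm42418, which RefSeq gives as an older name of Rn18s-rs5, a sequence related to ribosomal RNA, and its values ranged from 0 through 10.3 to 96.7 with 22 cells detected. The partly overlapping rows included RP24-388D8.6 at Rpl22l1 (0 through 42.7 to 126), 1700113A16Rik at Mef2d (0 through 52.8 to 245), 2310031A07Rik at Med7 (0 through 44.7 to 250) and RP23-448A11.8 at Rhoa (0 through 28.6 to 734).

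Zeros among these 24 rows gathered in a few cells. Cell 25 was at 0 in 17 of the 24, cell 21 in 10, cell 10 in 9 and cell 14 in 8, against a median of 3 and a lowest count of 1 in 5 cells. Cell 25 also had the fewest rows at 10 or more, and cell 21 the fewest detected rows.

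**Figure D3:**
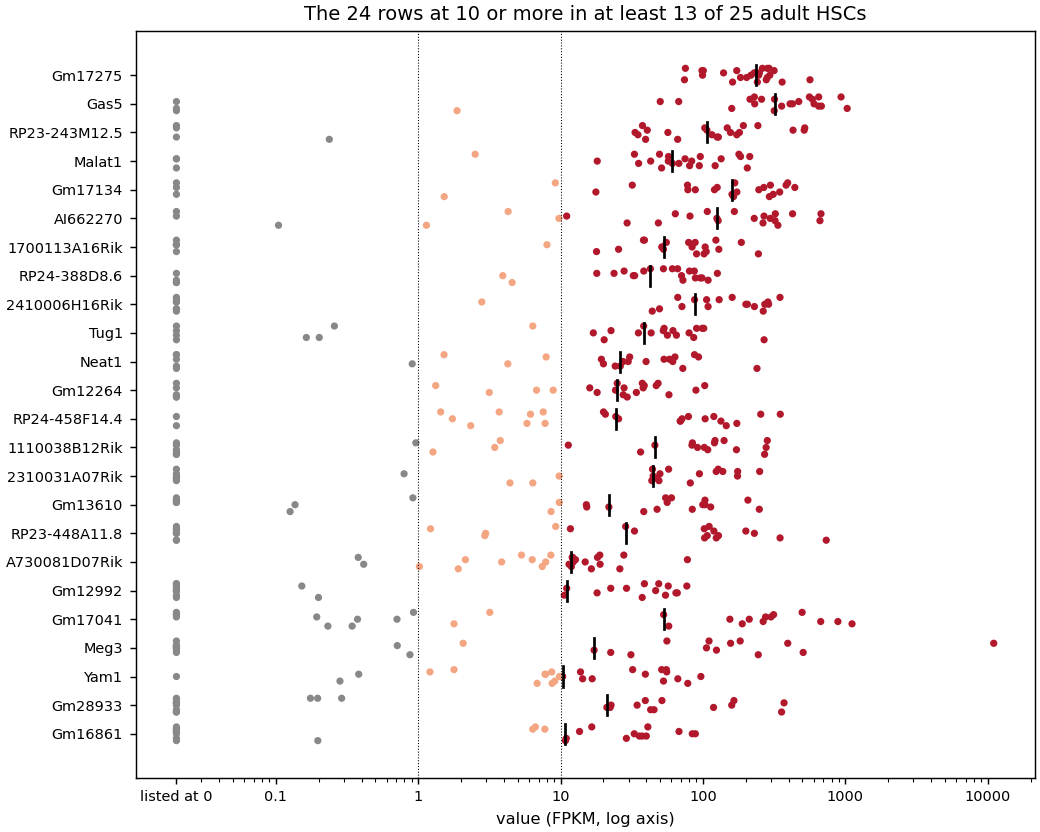
Values of the 24 rows at 10 or more in at least 13 of 25 adult HSCs (FPKM, log axis), 1 point per cell, with zeros drawn at the left edge and a black bar at the median; red points are at 10 or more, orange points from 1 up to 10 and grey points below 1. Gm17275 has all 25 points at 74.2 or more, and the other rows spread from 0, or for A730081D07Rik from 0.379, to between 77.0 and 11027.

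A further 6 rows were detected in every cell, and all of them are very long. They are 1700123O12Rik, Gm11867, Gm12132, Gm26939, Gm29536 and RP23-275B16.1, with spans from 211881 to 528515 bases and medians from 3.07 to 4.13. Their lowest values lay between 1.04 and 1.16. Their highest lay between 6.86 and 10.4, apart from 16.1 for RP23-275B16.1 in cell 24, and each had at most 1 cell at 10 or more. That value has the same digits as the 1.61 in cell 23. Cells 23 and 24 also have equal values in 1700123O12Rik (3.12), Gm11867 (1.09) and Gm12132 (1.13). For Gm11867 and Gm12132 these are the lowest of the row. For Gm26939, 21 of 25 values were written in exponent form. In the 9 T1 pre-HSCs, 1700123O12Rik ranged from 0.000376 through a median of 0.00486 to 0.0168. These 6 rows thus lie almost wholly in the range whose steps are described above.

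The promoters of 3 rows with high levels and of 2 rows in every cell are shown as examples of high and low CpG content, and the shares by class follow them. Each runs from 250 bases before to 50 after the RefSeq start on GRCm38.p6, 5′ to 3′ on the gene's strand, with each CG pair in capitals. Gas5 (chr1:161034351-161034650, plus strand) has 33 CG pairs, Tug1 (chr11:3648765-3649064, minus strand) 37 and 2410006H16Rik (chr11:62602627-62602926, plus strand) 31. The rows 1700123O12Rik (chr4:10797753-10798052, minus strand) and Gm29536 (chr1:79224462-79224761, minus strand) have 1 and 2. In Tug1 the RefSeq start lies 859 bases from the deposited end of the row, and in Gas5 179. For 2410006H16Rik, 1700123O12Rik and Gm29536 these distances are 0, 9 and 0. The 3 high rows were picked after their CG pairs were seen and lie above the median of 16 for rows at 10 or more in 13 or more cells. Other high rows have fewer, with 10 in Malat1, 13 in Meg3 and 16 in 1110038B12Rik, and Miat, listed at 0 in every cell, has 25.
Gas5: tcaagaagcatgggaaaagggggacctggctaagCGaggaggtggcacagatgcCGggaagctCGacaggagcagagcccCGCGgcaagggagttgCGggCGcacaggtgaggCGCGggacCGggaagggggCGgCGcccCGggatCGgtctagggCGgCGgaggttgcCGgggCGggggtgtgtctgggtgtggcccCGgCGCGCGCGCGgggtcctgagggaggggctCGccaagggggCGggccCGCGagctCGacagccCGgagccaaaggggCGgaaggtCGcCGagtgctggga
Tug1: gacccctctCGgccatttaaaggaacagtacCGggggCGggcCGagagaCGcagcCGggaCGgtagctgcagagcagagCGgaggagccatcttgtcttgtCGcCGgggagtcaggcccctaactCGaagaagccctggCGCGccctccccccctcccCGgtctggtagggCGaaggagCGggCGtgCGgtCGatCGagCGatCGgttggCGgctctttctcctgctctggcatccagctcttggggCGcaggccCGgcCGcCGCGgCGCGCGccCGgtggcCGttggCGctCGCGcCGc
2410006H16Rik: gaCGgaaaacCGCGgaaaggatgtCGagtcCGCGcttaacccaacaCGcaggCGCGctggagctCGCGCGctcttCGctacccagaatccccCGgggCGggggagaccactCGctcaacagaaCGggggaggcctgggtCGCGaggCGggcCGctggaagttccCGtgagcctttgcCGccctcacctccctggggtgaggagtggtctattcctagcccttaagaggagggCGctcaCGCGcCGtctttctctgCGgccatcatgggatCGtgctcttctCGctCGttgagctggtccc
1700123O12Rik: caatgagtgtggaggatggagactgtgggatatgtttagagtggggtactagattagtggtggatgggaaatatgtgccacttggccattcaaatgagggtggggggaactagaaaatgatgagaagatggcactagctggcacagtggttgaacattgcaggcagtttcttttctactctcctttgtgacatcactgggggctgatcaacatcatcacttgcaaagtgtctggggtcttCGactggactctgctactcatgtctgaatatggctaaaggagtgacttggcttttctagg
Gm29536: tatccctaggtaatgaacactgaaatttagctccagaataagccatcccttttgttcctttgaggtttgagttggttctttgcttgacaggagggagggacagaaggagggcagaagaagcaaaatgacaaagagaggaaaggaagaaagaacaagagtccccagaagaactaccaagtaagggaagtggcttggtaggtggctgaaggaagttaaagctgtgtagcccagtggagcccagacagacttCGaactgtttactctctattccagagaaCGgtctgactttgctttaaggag

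A promoter was called CpG-rich when its number of CG pairs was at least 0.6 of that expected from its C and G content. Among the 2187 rows matched to a RefSeq promoter, CpG-rich promoters belonged to 24.1% of the 1779 rows at 10 or more in no cell. The share was 44.2% of the 251 rows at 10 or more in 1 to 4 cells outside falling runs, 56.4% of 39 rows in 5 to 12 cells and 72.7% of 11 rows in 13 or more cells. All 32817 promoters of the RefSeq table held 35.8%. By detection at 1 or more this order was absent, with 28.3% of rows detected in 0 cells and 28.7% of the 143 matched rows in 13 or more cells. The 118 matched rows that were detected in 13 or more cells but reached 10 in fewer than 5 had 20.3%. The motif GGGCGG, on either strand and able to overlap CG pairs, was in 72.7% of the promoters of rows at 10 or more in 13 or more cells, in 25.3% of those at 10 or more in no cell and in 35.6% of all RefSeq promoters. These matches describe the letters of the window only. The class at 10 or more in no cell keeps its rows in falling runs. CpG-rich promoters belonged to 17.4% of the 461 matched rows in falling runs that were detected in 1 cell. Of the 24 rows at 10 or more in 13 or more cells, only 11 were matched.

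Imprinted lncRNAs, which are expressed from the chromosome of 1 parent, were led by Meg3 and H19. Meg3, the maternally expressed lncRNA of the Dlk1 cluster at chr12:109541001-109571726, ranged from 0 through a median of 17.2 to 11027 in cell 24, with 506 in cell 6 next. It was detected in 14 of 25 cells (56.0%, exact 95% interval 34.9 to 75.6), 13 of them at 10 or more. H19, the maternally expressed neighbour of Igf2 at chr7:142575529-142578143, was detected in 8 cells (32.0%, interval 14.9 to 53.5), all at 10 or more, up to 872 in cell 22 and 1054 in cell 26, and its median over all cells was 0.166. Both RNAs were thus high in part of the cells and at or near 0 in the rest.

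Airn, whose transcription silences Igf2r on the paternal copy, was detected in 14 cells with a median of 1.23 and reached 10 in 2, cell 26 at 11.8 and cell 24 at 74.7, the value whose digits match cell 23. Kcnq1ot1, its counterpart at the Kcnq1 cluster, was detected in 11 cells and reached 10 in 0. Rian and Mirg, from the same cluster as Meg3, each reached 10 in 1 cell, cell 4 and cell 22, at 119 and 96.8. Snhg14, also a member of this list, is listed here as D7Ertd715e and was missed by the match of names. It was detected in 16 cells with a median of 1.74 and reached 10 in 4, up to 121 in cell 2. The 11 members found by name, which include Jpx of the X-inactivation list, had 8 detected at 1 or more and 7 at 10 or more in at least 1 cell. Over all rows these shares were 60.2% and 16.2%. Rows outside falling runs, where all listed members lie, had 47.6% detected and 16.8% detected in 5 or more cells. Those shares apply to the lists below as well.

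All 5 listed lncRNAs of the X-inactivation list were detected and 4 reached 10 in at least 1 cell, compared with 60.2% and 16.2% of all rows. Xist, which coats the inactive X chromosome, lies at chrX:103460375-103483217 and ranged from 0 through 7.04 to 49.1 in cell 9, with 19 cells detected, 10 at 10 or more and 5 at 0. Tsix, its antisense partner over the same bases, was detected in 7 cells up to 8.47 and was never at 10, and without strand the reads of Xist and Tsix cannot be told apart. Ftx and Jpx, neighbours known as activators of Xist, reached 10 in 4 cells and 1 cell. Firre, an X-linked RNA of nuclear organisation, was detected in 19 cells with a median of 1.83 and reached 10 in 4, up to 71.6 in cell 18.

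The snoRNA hosts varied widely from cell to cell below Gas5. Of 10 listed members 8 were detected, 7 of them in 5 or more cells, and 5 reached 10 in 5 or more cells. Over all rows 60.2% were detected, 12.7% in 5 or more cells, and 1.81% reached 10 in 5 or more cells. Snhg12 ranged from 0 through 2.51 to 363 in cell 2 and Snhg6 from 0 through 3.34 to 239 in cell 7, each with 12 cells at 10 or more. Snhg5 was at 0 in 14 cells and reached 10 in 9, up to 226 in cell 22. Snhg1 was detected in 14 cells but reached 10 in only 5, up to 49.0 in cell 17. Snhg4 and Snhg7 reached 10 in 4 and 3 cells. Snhg3 never exceeded 4.86, Snhg18 never exceeded 0.230 and Snhg9 was listed at 0 throughout.

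Among the other nuclear and conserved lncRNAs, Pvt1, the neighbour of Myc, was detected in 19 cells without ever reaching 10. Its values ran from 0 through 4.28 to 9.89, and 8 were written in exponent form. The transcript 1700020I14Rik reached 10 in 5 cells, up to 114 in cell 13, and Dancr, an RNA known for holding back differentiation, in 3, up to 129 in cell 11. Rmst and Crnde stayed below 10, and Miat and Mir17hg, the host of a growth-promoting microRNA cluster, were listed at 0 in all 25 cells. The list had 10 listed members, 8 detected and 4 at 10 or more in 5 or more cells, compared with 60.2% and 1.81% of all rows.

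MicroRNA hosts were detected in part of the cells. Dleu2, host of a microRNA cluster lost in chronic lymphocytic leukaemia, was detected in 15 cells with a median of 2.32 and reached 10 in 5, up to 137 in cell 1. Mir142hg, host of a microRNA abundant in blood cells, was detected in 6 cells and reached 10 in 4, with 294 in cell 25 as its highest. Mir22hg reached 484 in cell 21 and was at 0 in 21 cells. Mir99ahg was detected in 13 cells and never exceeded 7.27. Of 6 listed members 4 were detected, 3 of them in 5 or more cells, and 3 reached 10 in at least 1 cell. Over all rows 60.2% were detected, 12.7% in 5 or more cells, and 16.2% reached 10.

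Of 11 listed Hox cluster transcripts, 6 were at 0 in every cell, among them Hotair and Hottip. The other 5 were detected and reached 10 in at least 1 cell (45.5% of the list). The share detected was 60.2% of all rows and 47.6% of rows outside falling runs, and 16.2% of all rows reached 10. Hoxb3os, which overlaps Hoxb2 and Hoxb3, was detected in 7 cells and reached 10 in 6, up to 93.7 in cell 6. Hotairm1, known from myeloid differentiation, had 1 value, 135 in cell 26. Gm15050, also in the Hoxa cluster, had 1 value, 129 in cell 11, the cell with the highest Hoxaas3 value, 17.4.

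Of 9 listed lncRNAs studied in blood or immune cells, 6 were detected, and AI662270 and Dleu2 were the only ones at 10 or more. The shares were 66.7% detected and 22.2% at 10 or more. Over all rows they were 60.2% and 16.2%, and 47.6% of rows outside falling runs were detected. Gm14005 (Morrbid), known to regulate the survival of short-lived myeloid cells, was detected in 13 cells and never exceeded 9.12. Gm4258 was detected in 15 cells and never exceeded 8.83, and Trp53cor1, a target of p53, was detected in 5 and never exceeded 7.41. The 1 listed structured RNA without a poly(A) tail, Rnu11, was at 0 in every cell. None of the 60 listed members of any list lay in a falling run.

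**Figure D4:**
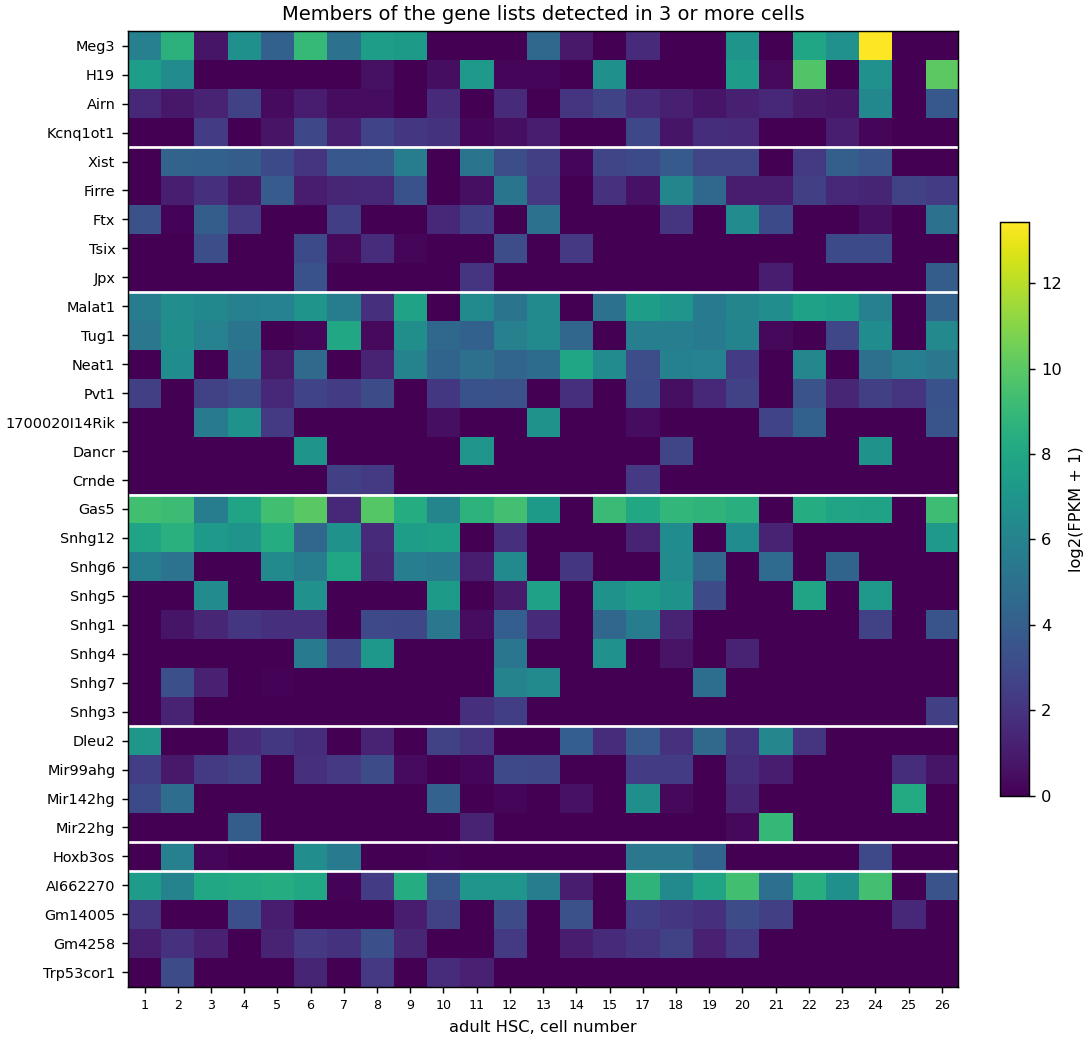
log2(FPKM + 1) of the 33 list members found by name and detected in 3 or more cells, by cell number, with white lines between the lists. Gas5, Malat1 and AI662270 are filled in 22 cells each, while H19, Snhg5 and Hoxb3os are filled in a few cells and at or near 0 in the rest.

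Some rows were high in part of the cells and low or at 0 in the rest. Among rows detected in 5 to 20 cells, the highest medians where detected belonged to Gm17041 at 265, Gm15135 at 189, Gm20659 at 169, Gm28959 at 166, H19 at 160 and 2410006H16Rik at 145. Gm28959 was at 10 or more in all 7 cells that detected it and Gm20659 in all 8. Gm15135, Gm20659 and Gm28959 lie within Trim34a, Dusp3 and Abhd14b, so the limit on coding genes holds for them as well.

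The relation of detection to length depended on the range of values used. The span of a row, the distance between its deposited ends, correlated with the number of cells that detected it with Spearman's rho = 0.42 across all 6910 rows and 0.55 across the 5227 rows outside falling runs. Of the 200 rows of 100 kb or more, 62.5% were detected in 13 or more cells, compared with 11.4% of rows of 20 to 100 kb, 1.99% of 5 to 20 kb and 0.895% of rows under 1 kb. With values of 10 or more, rho was 0.0028 across all rows and 0.035 outside falling runs. The share of rows at 10 or more in 5 or more cells was 2.00% at 100 kb or more, 1.66% at 20 to 100 kb, 2.66% at 5 to 20 kb and 1.53% under 1 kb. No row of 100 kb or more was at 10 or more in 13 cells. Rows are not independent, since many overlap, and these correlations are descriptions.

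**Figure D5:**
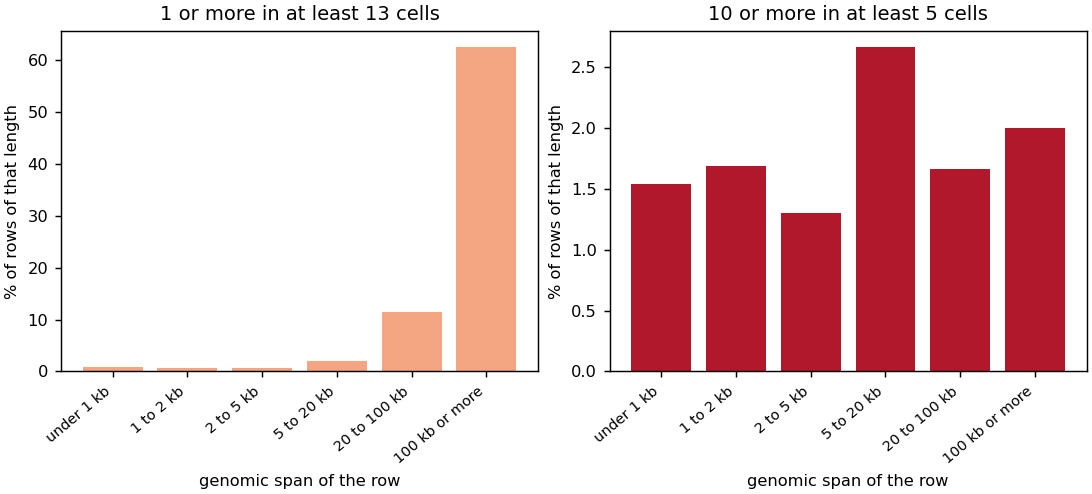
Share of rows (%) by genomic span that were detected at 1 or more in at least 13 cells (left) and that were at 10 or more in at least 5 cells (right); the vertical scales differ. The left bars climb from 0.895% under 1 kb to 62.5% at 100 kb or more, and the right bars lie between 1.30% and 2.66%.

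Median spans followed the same pattern. Detected rows had a median span of 5704 bases, or 13150 without falling runs, and rows detected in 13 or more cells 79535. Rows at 10 or more in 13 or more cells had a median span of 4328 bases.

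By chromosome, chromosome 1 held the most rows, 1100, of which 475 were detected (11.4% of all detected rows) and 350 outside falling runs (14.1%). The highest rows of chromosome 1 were Gm17275 and Gas5. Chromosome Y held 561 rows, of which 373 were detected, 362 of them in 1 cell. Of the 561, 350 lay in falling runs, and 23 detected rows remained without them, which moved the share of chromosome Y among detected rows from 8.97% to 0.924%. Outside falling runs only 2 chromosome Y rows reached 10, Gm28235 at 236 and Gm28236 at 220, each with a single value above 0, in cell 23. These rows stand next to each other and to Gm28237, at 219 in cell 23, in a falling stretch too short for the rule of 5 rows. No chromosome Y row was detected in 13 cells. Chromosome 11, with 505 rows (7.31% of all rows), held 5 of the 24 rows at 10 or more in 13 or more cells. Chromosome 19, with 102 rows (1.48%), held 3, which were Malat1, Neat1 and RP24-458F14.4, the last inside Malat1.

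Cells resembled each other weakly across rows. Over the 2489 detected rows outside falling runs, Spearman's rho between cells had a median of 0.31 over 300 pairs, from 0.14 to 0.39 apart from cells 23 and 24, whose rho was 0.50. All pairs share the same rows and the same many zeros, so the values describe the table and are not tested.

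Of the 44551 pairs among the 299 rows in 13 or more cells, 108 had rho of 0.6 or more over the 25 cells, and the median was 0.030. The most alike were Gm17275 on chromosome 1 and Gm29502 on chromosome 13, with rho = 0.89, and Gm17275 was 152 to 274 times as high as Gm29502 in every cell, at a median of 187. Next were RP24-338A22.1 and RP24-152H15.4, both on chromosome 1 and of 392 and 387 bases (rho = 0.85), then Gm16861 and Gm13849 (0.83), 2310030A07Rik and 4930548K13Rik (0.78), and RP24-152H15.4 and Gm29562 (0.76). Gm29502, RP24-338A22.1, 2310030A07Rik, 4930548K13Rik and Gm29562 never reached 10, so in each pair with them at least 1 row has all its values below 10. Reads that match several places can be shared between rows, and how they were assigned is not given in the sources used here.

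The 9 wildtype T1 pre-HSCs were made with another library method and deposited in RPKM. Cells at 10 or more are counted in each group, and a value of 10 need not mean the same level in both. The Malat1 median, for instance, was 8814 in the T1 cells and 61.0 in the adult HSCs. H19 was at 10 or more in 9 of 9 T1 cells, from 231 through 477 to 1261, and in 8 of 25 adult HSCs. Meg3 was at 10 or more in 0 of 9 T1 cells and 13 of 25 adult HSCs, and Neat1 in 0 of 9 and 16 of 25. Those 13 include cells 23 and 24, whose Meg3 digits match. AI662270 was at 10 or more in 2 of 9 T1 cells and 19 of 25 adult HSCs. Malat1 was at 10 or more in 9 of 9 and 21 of 25, Gas5 in 9 of 9 and 21 of 25, and Gm17275 in 9 of 9 and 25 of 25. Snhg9, listed at 0 in the adult cells, was at 10 or more in 5 of 9 T1 cells. Library method, unit, stage, tissue and genotype label (mH19 flDMR/+ in the T1 cells, at the H19 locus) differ together between the groups and cannot be told apart.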

How the data were processed

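Adult HSC libraries were poly(A)-enriched single-cell libraries with ERCC spike-ins added at lysis, and T1 pre-HSC libraries used Smart-Seq, per the labels. The deposited adult table names no unit. Its values were treated as FPKM because Cufflinks 2.1.0 and build mm10 are named in the submitters' processing notes. The deposited T1 table holds RPKM. The aligner, the annotation, strand use and the treatment of reads with several matches were not stated in the sources used here. Of 2541 rows whose name is a RefSeq symbol, 954 had a deposited start 1 below the RefSeq start and 51 an equal start. The others differed otherwise. All deposited starts were raised by 1, and the deposited length is the genomic span. The smallest adult value above 0 was 0.100. The 1 blank value was left out. The 2 adult columns that share a cell number were not used.

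Detection was 1 or more, and mean levels used log2(FPKM + 1). Falling runs were 5 or more rows with at most 60 rows between neighbours, a search tested on simulated data. Intervals are exact Clopper-Pearson at 95% and cover counting error only. Wildtype T1 cell 19 was left out because Actb and Rplp0 are listed at 0 there, against at least 710 and 308 in the other cells. Promoters were matched to 2187 rows through the RefSeq table of GRCm38.p6. The 5 methylation libraries were not analysed here. Computations used Python 3.11.15, pandas, numpy, scipy and matplotlib.

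Members, lists and naming rule were chosen with earlier results of these data known. The rule names the 15 highest rows by mean, up to 10 rows in every cell, the 6 highest where detected among rows in 5 to 20 cells, up to 3 members a list, the 3 longest and 3 shortest rows in 13 or more cells, the highest row of each chromosome and the 5 most alike pairs. Rows at 10 or more in 13 or more cells, other list members and single values were named after their values were seen.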

Additional observations from a re-analysis of the deposited data

How the results depend on the processing

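Raising detection from 1 to 10, chosen after seeing the data, gave 1117 detected rows, 100 per cell, 1 in every cell and 779 in 1 cell only. It also gave shares of 10.1% for chromosome 1 and 7.61% for chromosome Y, a length correlation of 0.0028, 5 nuclear and conserved and 2 blood list members, and coding overlap of 70.8%. With falling runs also set aside, it gave 743 rows, 87 per cell and 411 in 1 cell only. The chromosome shares were then 11.8% and 0.269%. Detection at 5 gave 2592 rows, 245 per cell, 1 in every cell, 1584 in 1 cell, a chromosome Y share of 6.60% and a length correlation of 0.31. Detection above 0 gave 31 rows in every cell, and rescaling each cell to the same total 2.

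Setting aside the falling runs, also chosen after seeing the data, gave 2489 detected rows, 836 in 1 cell, shares of 14.1% and 0.924% for chromosomes 1 and Y, a median span of 13150 bases and a length correlation of 0.55. Rows in 13 or more cells gave 14.4%, 0%, 79535 bases and a correlation between cells of 0.14, and rows in 3 or more cells 14.0% and 0.471%. Without cells 23 and 24, all 19 summaries and the 120 values of named rows moved by less than the spread between cells or by at most 1.5 times. No paired analysis was possible because no groups were tested and replicate numbers only name cells. Depth is unknown, and zeros cannot be read as absence.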
